A study of Mus musculus with 7 samples.

Results

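The Ly6 and Lypd genes described here encode small cell-surface proteins of the Ly6 and uPAR family. The set comprises 6 genes, Ly6m, Ly6a, Ly6d, Ly6e, Ly6k and Lypd8, out of 19938 genes that the array table names with a single symbol. They were chosen on their response to diet in these same arrays, because Ly6m was much higher under calorie restriction while Lypd8 was at the same level on both diets. Their diet differences are therefore given as a description, with no p-value, and the calls counted among them are no evidence for them. Of the 6 genes, 5 had a transcript cluster (the probes of 1 gene on the array) with a single symbol, and all 5 passed the filter on low values, a mean of at least 6.79 on the log2 scale. Ly6a, which encodes the stem cell antigen Sca-1, had no cluster named here, so it has no value.

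Total RNA was measured in sorted mouse Paneth cells, which sit at the bottom of the crypts of the small intestine, release antimicrobial proteins and support the neighbouring stem cells. All mice were 4 months old, and no genotype or strain is given in the labels. They were either fed freely (ad libitum, n = 3 samples, AL 1 to AL 3) or received 60% of the ad libitum calories (calorie restricted, n = 4 samples, CR 1 to CR 4), and the diets lasted 4 to 7 weeks. Cells were sorted by flow cytometry, and each sample was hybridised to 1 array. The labels call the samples biological replicates but do not say how many mice went into each, so the spread between samples is that of these preparations.

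Proteins of this family share a compact fold of finger-like loops pinned by disulfide bonds, and most are tied to the outer membrane leaflet by a glycosylphosphatidylinositol (GPI) anchor. Ly6e, also called Sca-2 or TSA-1, is induced by interferon in many cell types and is the mouse receptor for the placental fusion protein syncytin-A. Ly6d marks lymphoid progenitors committed to the B cell lineage, and Ly6k is a germ cell protein that binds Tex101 and is needed for male fertility. Lypd8 is a heavily glycosylated protein of the intestinal epithelium that binds bacterial flagella in the colon and keeps motile bacteria off the mucosa.

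The 19 Paneth cell markers tested had a mean log2 value between 12.26 and 12.73 on every array, with Lyz1 at 14.31 ± 0.04 (SD, n = 4) under calorie restriction and 14.31 ± 0.02 (SD, n = 3) in freely fed mice. Lyz1 lies near the highest value on these arrays (14.67), where differences may be compressed, and this was not tested. Of the 19 Paneth markers, 17 had negative differences and 0 were called (limma). An unadjusted p below 0.05 (limma) was found for 1, beside 1247 of all 13409 genes tested. The Paneth marker was Mptx1, a mucosal pentraxin, at 9.48 to 11.15 under calorie restriction and 11.62 to 12.74 in freely fed mice (-1.42, adjusted p = 0.311). Markers of goblet cells also had a high list mean, at 12.46 to 12.81 under calorie restriction and 12.78 to 12.96 in freely fed mice. Of 9 goblet markers tested, 1 had a positive difference and 0 were called (limma). Unadjusted p was below 0.05 (limma) for 3 of them, beside the same 1247 of 13409 genes. Zg16 was higher under calorie restriction (0.96 ± 0.35, SE), and Muc2 (-0.20 ± 0.06) and Retnlb (-1.32 ± 0.47) were lower. Of 18 immune cell markers measured, 7 passed the filter, and of 11 markers of endothelium and stroma, 6 did. Their highest means were those of Lyz2 (12.82 ± 0.12 against 12.79 ± 0.04), a near-identical copy of Lyz1 whose probes can share its transcripts, and the filament gene Vim (10.58 ± 0.34 against 10.48 ± 0.18). Csf1r, a macrophage receptor gene, and Kdr, an endothelial one, were among those that did not pass. The leukocyte gene Ptprc, the T cell gene Cd3e and the endothelial gene Pecam1 did pass, at means of 6.95, 7.58 and 6.86 over all arrays. Of 29 enterocyte (absorptive cell) markers tested, 28 had positive differences, beside 7268 of all 13409 genes tested, and their mean lay between 11.60 and 11.84 on the calorie-restricted arrays and between 10.41 and 11.01 on the ad libitum arrays. On an array, fewer cells of a type and less RNA per cell cannot be told apart. Array medians ranged from 7.24 to 7.44, and the number of arrays limits the precision of every value.

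Ly6m carried the response to diet. Its log2 values were 9.21, 8.96, 9.51 and 9.32 in CR 1 to CR 4, and 7.49, 6.87 and 7.28 in AL 1 to AL 3. Every calorie-restricted array lay above every ad libitum array, with a gap of 1.48 between the nearest values, whereas the arrays of 1 diet spanned 0.55 and 0.62. The means were 9.25 ± 0.23 (SD, n = 4) and 7.21 ± 0.32 (SD, n = 3), a difference of 2.04 ± 0.18 (SE of the limma fit), or 4.12-fold. Of 13409 genes tested, 8 had a larger positive difference, and the spread of Ly6m over the 7 arrays was exceeded by 0.157% of them. The ad libitum mean stood above the filter level and above most clusters of genes taken to be silent, but within their range. Of 1203 genes for olfactory, vomeronasal and trace amine receptors, a rough reference for such clusters chosen after the values were seen, 24 had an ad libitum mean at or above that of Ly6m, and 0 had a calorie-restricted mean at or above it. The ad libitum mean thus lay in the upper tail of the reference, and signal above background was not settled for Ly6m in freely fed mice. The fold depends on the array's floor. Leaving out 1 array at a time gave differences between 1.87 and 2.18, the lowest without AL 2.

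Among the 5 members measured, 1 was called higher, Ly6m, beside 0.656% of all genes tested (88 genes, limma, adjusted p below 0.05), and 0 were called lower, beside 0.00746%. It was also the only 1 of the 5 whose groups did not overlap, beside 10.2% of all genes tested, and 7.14% in the higher direction. The choice of the members rested on Ly6m and Lypd8, so the outcome for these genes was set in advance and the counts are no evidence. The number of genes called higher over the whole table depended on single arrays, at 12, 23, 12 and 58 without CR 1 to CR 4 and 32 without AL 2. The number called lower was 9 without AL 1, 2 without CR 4, and 0 when CR 1, CR 2, CR 3 or AL 2 was left out.

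**Figure D1:**
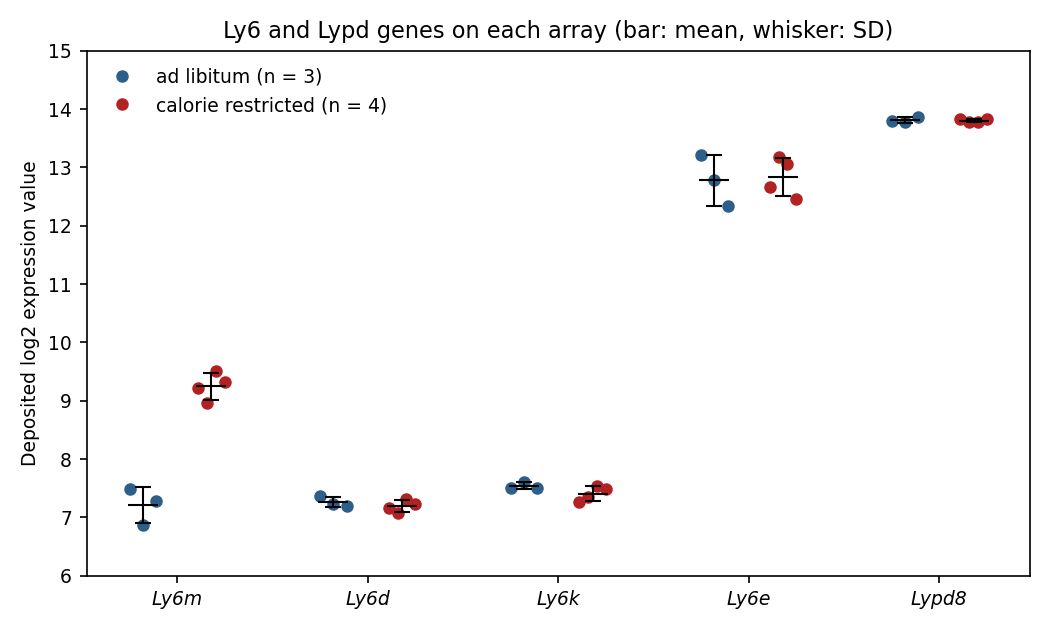
Deposited log2 value (vertical axis) of the 5 measured genes (horizontal axis) on each array, in blue for ad libitum (n = 3) and red for calorie restricted (n = 4), with the mean as a bar and the SD as a whisker. The diets are apart only for Ly6m, at 6.87 to 7.49 against 8.96 to 9.51. Heights of different genes are not comparable, since each cluster has its own probes.

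Lypd8 was bright and flat. It stood at 13.83, 13.78, 13.77 and 13.83 in CR 1 to CR 4, and at 13.80, 13.77 and 13.87 in AL 1 to AL 3. The groups overlapped, and all 7 arrays lay within 0.10 of each other, with 99.6% of the genes tested more variable. The difference was -0.02 ± 0.06 (SE), and it was 0.03 after quantile normalization and 0.07 after median centring, so it had no settled sign. Values on these arrays reached no higher than 14.67. Lypd8 lies near that upper end, where differences may be compressed, and this was not tested.

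Lypd8 was the only member with an entry in the table of promoter sequences. The 100 bases before its start (RefSeq, GRCm38.p6, chr11:58378932-58379031, plus strand) are set beside those of Lypd9, a family gene close by on the same chromosome (chr11:58452967-58453066, minus strand). The table gives 2 starts for Lypd8, and the first was used. The sequences are shown because the genes lie close together while Lypd8 was near the top of the array range and the cluster of Lypd9 stood at 7.35 ± 0.08 (SD, n = 4) and 7.37 ± 0.12 (SD, n = 3), although levels of different clusters are not comparable. Capitals mark TATATAAG, a TATA-type motif.
Lypd8: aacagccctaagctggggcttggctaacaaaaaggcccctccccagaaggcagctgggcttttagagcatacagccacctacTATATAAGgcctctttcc
Lypd9: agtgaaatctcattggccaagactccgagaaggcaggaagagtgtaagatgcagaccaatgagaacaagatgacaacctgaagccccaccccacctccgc
The motif was picked after the Lypd8 sequence had been seen. It occurs on either strand in 159 of 27025 promoter windows of this length (0.588%), 1 window per gene, and not in that of Lypd9. A match describes the letters only and shows no binding. The genes nearest to Lypd8 with a value, the zinc finger gene Zfp672 and Sh3bp5l on one side and 1810065E05Rik and Gm12253 on the other, had differences of -0.04 ± 0.09, 0.03 ± 0.09, 0.36 ± 0.30 and -0.06 ± 0.06 (SE), and Gm12253 lay below the filter level.

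Ly6e varied from array to array in a pattern that cut across the diets. Its log2 values were 12.67, 13.17, 13.05 and 12.46 in CR 1 to CR 4, and 13.21, 12.78 and 12.34 in AL 1 to AL 3. The highest and the lowest of the 7 were both ad libitum arrays. The means, 12.84 ± 0.33 (SD, n = 4) and 12.77 ± 0.44 (SD, n = 3), differed by 0.06 ± 0.23 (SE), which is within the spread of either diet. The difference was -0.05, -0.01 and -0.16 without CR 2, CR 3 and AL 3, and 0.28 without AL 1.

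Markers of enteroendocrine cells, the hormone-secreting cells of the gut lining, had a list mean that was highest on the same arrays as Ly6e. Over the 8 markers, the mean stood at 10.87, 11.56, 11.57 and 10.51 in CR 1 to CR 4 and at 11.26, 10.57 and 10.51 in AL 1 to AL 3. CR 2, CR 3 and AL 1 were the highest arrays for both. Tph1, the serotonin-synthesis enzyme, had this order too (11.65, 11.78 and 11.29 there, 10.48 or less elsewhere). The hormone genes Gcg and Cck did not, since AL 1 was their lowest array (10.59 and 9.68). All 8 markers had positive diet differences, and 0 were called (limma). An unadjusted p below 0.05 (limma) was found for 2, beside 1247 of all 13409 genes tested. This list was set beside Ly6e after its values had been seen, and the part of these cells in the Ly6e values was not tested. The markers of tuft cells, another rare cell type, had their highest values instead in AL 2 (9.24) and CR 2 (9.20).

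Ly6d and Ly6k were dim on every array. Ly6d ranged from 7.07 to 7.31 under calorie restriction and from 7.19 to 7.36 in freely fed mice, a difference of -0.07 ± 0.09 (SE), which was 0.02 after either quantile normalization or median centring. Ly6k ranged from 7.26 to 7.54 and from 7.51 to 7.61, a difference of -0.14 ± 0.09 (SE), and its groups overlapped through CR 3. The table carries no detection call. The 1203 receptor genes used as a reference had a median of 5.06 and a 95th percentile of 6.74. Of these, 22 had a mean over all arrays at or above that of Ly6d (7.22) and 10 at or above that of Ly6k (7.46). Both means lay above that percentile but below the highest receptor mean (9.12). Expression of Ly6d and Ly6k in these samples was therefore not settled by these values.

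The 5 genes with profiles most like that of Ly6m over the 7 arrays were Slc13a2, Acot12, Aldh1a1, Slc23a1 and Enpp3. Likeness was measured as the root mean square distance between log2 profiles, each centred on its own mean, over all 7 arrays, so that distances are smaller around a gene of smaller spread. The nearest of the genes tested was the dicarboxylate carrier Slc13a2, at a distance of 0.167 (10.39 ± 0.15 under calorie restriction, SD, n = 4, against 8.41 ± 0.29, SD, n = 3). It was followed by the acetyl-CoA hydrolase Acot12 at 0.193 and the retinal dehydrogenase Aldh1a1 at 0.195. The vitamin C carrier Slc23a1 at 0.221 and the ectonucleotidase Enpp3 at 0.233 completed the 5 nearest. Differences between the diets were 1.98, 1.81, 2.01, 1.88 and 1.86 for these 5 genes in turn. Being picked for a profile like that of Ly6m, they had to differ between the diets too.

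Around Ly6e, whose spread was smaller (SD 0.34 over 7 arrays, against 1.12 for Ly6m), the nearest profile was at a distance of 0.0358, that of Dpysl2, which encodes a regulator of microtubule assembly. Zfp710 (0.0589), the lysosomal protease gene Ctsh (0.0655), Nt5dc3 (0.0700) and the laminin chain gene Lamc1 (0.0702) came next. The diet differences of these 5 genes lay between -0.02 and 0.10. Dpysl2 stood at 11.91 and 11.78 in CR 2 and CR 3 and at 11.96 in AL 1, and between 11.11 and 11.47 on the other arrays. The other members were not compared in this way, because their spread over the arrays did not exceed the median of all genes tested (SD 0.15).

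**Figure D2:**
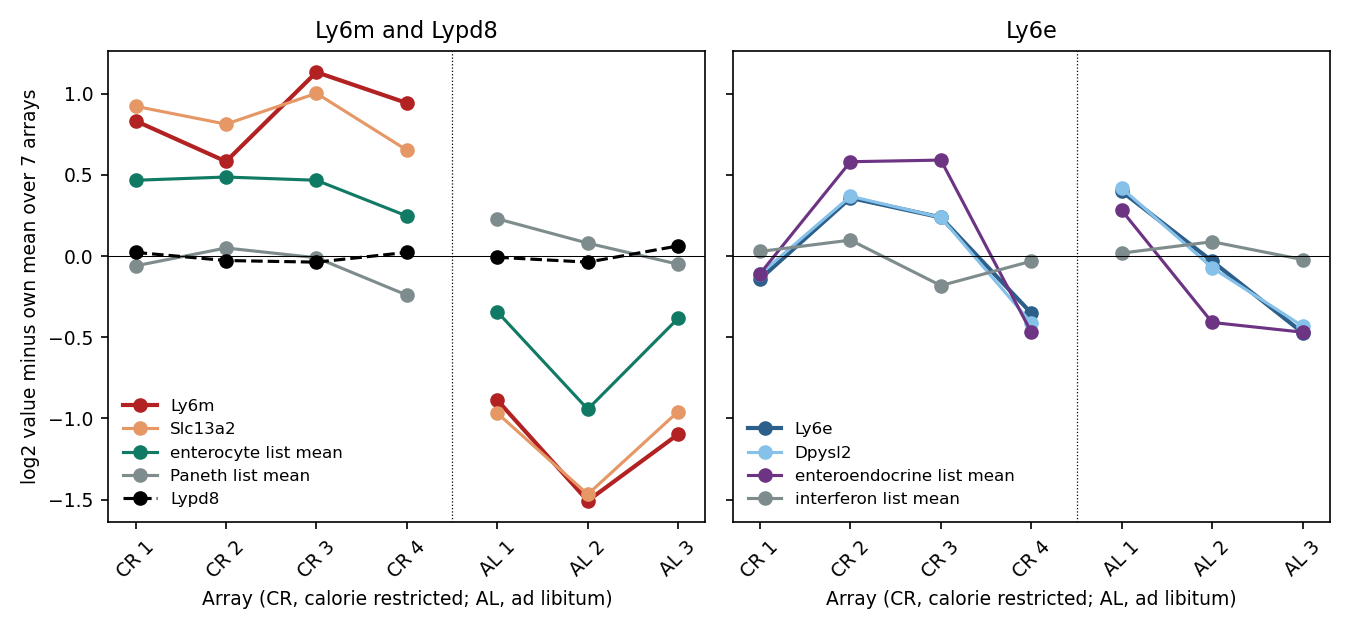
log2 value minus the gene's or list's own mean over the 7 arrays (vertical axis) for each array (horizontal axis; CR, calorie restricted; AL, ad libitum; the order of replicates has no meaning and lines only join points of 1 series within a diet). Left, Ly6m and Slc13a2 step down from the calorie-restricted to the ad libitum arrays with the enterocyte list mean (11.60 to 11.84 against 10.41 to 11.01), while Lypd8 stays level. Right, Ly6e and Dpysl2 are highest in CR 2, CR 3 and AL 1, as is the enteroendocrine list mean. Grey lines are the Paneth (left) and interferon (right) list means.

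Enterocyte markers moved with the diets in the same direction as Ly6m. Of the 29 tested, 10 were called higher and 0 lower (limma, adjusted p below 0.05), beside 0.656% of all genes tested called higher, with a median difference of 1.01 beside 0.01. The count was 2, 2, 2 and 6 without CR 1 to CR 4. Cyp3a11, a drug-metabolizing cytochrome P450, was the only marker of the list with a larger difference than Ly6m, at 2.73. Those with the smallest p after Cyp2b10 (1.79 ± 0.13, SE, adjusted p = 0.00534) were the apolipoprotein gene Apoc3 (1.54 ± 0.15), the trehalase gene Treh (1.48 ± 0.16) and the amino acid carrier gene Slc6a19 (1.65 ± 0.19). The markers with the highest means, Anpep and Mgam, which encode digestive enzymes of the brush border, had differences of 0.34 ± 0.10 and 0.19 ± 0.11 (adjusted p = 0.264 and 0.711).

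Ly6m was also set against the enterocyte markers array by array, after the values were seen. Subtracting the list mean from Ly6m left -2.62, -2.88, -2.31 and -2.28 in CR 1 to CR 4, and -3.52, -3.55 and -3.69 in AL 1 to AL 3. The group means differed by 1.07. Ly6m was chosen for a large difference, so a larger one than that of the list mean follows from the choice. Within the ad libitum arrays, replicate 2 was the lowest both for Ly6m (6.87) and for the list (10.41). The calorie-restricted arrays had different orders. There, CR 2 was the lowest for Ly6m (8.96) but the highest for the list (11.84). CR 4 was the lowest for the list (11.60), with Ly6m at 9.32. How much of the Ly6m difference goes with enterocyte content was not tested.

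Genes of particular positions along the villus, the finger-like fold above the crypt, were also examined. Of 9 genes known from enterocytes near the villus tip, 3 were called higher, beside 0.656% of all genes tested: the adenosine deaminase gene Ada (2.14 ± 0.35, SE, limma, adjusted p = 0.0447), Enpp3 (1.86 ± 0.25, adjusted p = 0.0213) and the transcription factor gene Creb3l3 (1.31 ± 0.13, adjusted p = 0.00966). The count was 0, 1 and 0 without CR 1, CR 2 and CR 3, and 1 without AL 2 or without AL 3. Lypd8 belongs to an antimicrobial group known from enterocytes nearer the villus base. Of 7 other genes of that group, 0 were called in either direction (limma), and all 7 had positive differences, with a median of 0.55. An unadjusted p below 0.05 (limma) was found for 3, beside 1247 of all 13409 genes tested. Without AL 3, 1 of the 7 was called. The lectin genes Reg3a and Reg1 had differences of 1.30 ± 0.33 (adjusted p = 0.185) and 1.11 ± 0.44 (adjusted p = 0.481). Il18 and Reg3g, at 0.64 ± 0.25 and 0.22 ± 0.17, had adjusted p = 0.461 and 0.805. The chemokine gene Ccl25 had a difference of 0.20 ± 0.27. The mean of the 7 genes ran from 10.70 to 10.97 under calorie restriction and from 9.84 to 10.99 in freely fed mice, so the groups overlapped through AL 3.

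The chromosomal neighbours of Ly6m had much smaller differences. Ly6m lies in a cluster of family genes on chromosome 15 that also holds Ly6d, Ly6k, Ly6e and Ly6a, per the RefSeq gene order of GRCm38.p6. Of 29 protein-coding genes from Psca to Gpihbp1, 21 had a value, and 11 of these passed the filter. Most were dim, with 17 of the 21 below 8 on every array. A small difference in a dim cluster does not show an expressed gene that ignored the diet. Of the 7 that passed and are not members, 0 were called (limma), and all had an unadjusted p of 0.0939 or more. The 20 measured genes other than Ly6m had differences between -0.20 (Slurp1) and 0.42 (Ly6g2), and their groups overlapped in every case. Next to Ly6m, the corticosteroid enzyme genes Cyp11b1 and Cyp11b2 stood at 6.44 ± 0.09 against 6.41 ± 0.10 and at 6.55 ± 0.09 against 6.56 ± 0.01 (SD, n = 4 and 3), below the filter level, and Ly6e follows on the other side. Ly6i, between Ly6e and Ly6a, was at 4.69 ± 0.11 against 4.71 ± 0.01, also below the filter level. Ly6g2 ranged from 7.17 to 8.10 under calorie restriction and from 6.89 to 7.80 in freely fed mice (0.42 ± 0.27, SE, limma, adjusted p = 0.737). Ly6c1 and Ly6c2 share their clusters and have no value of their own, and probes of close relatives in this cluster can bind each other's transcripts.

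**Figure D3:**
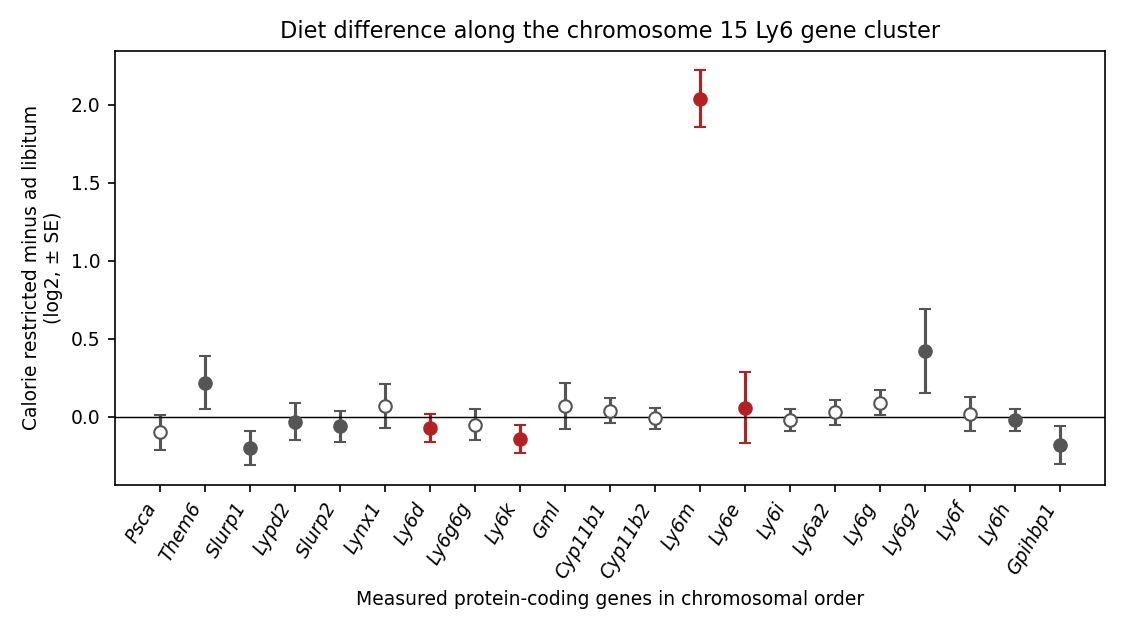
Difference in log2 value between the diets, calorie restricted less ad libitum, with its SE (vertical axis) for the 21 measured protein-coding genes from Psca to Gpihbp1 in chromosomal order, without distances (horizontal axis). Members are red, and open circles mark genes below the filter level, whose values come from the fit without the filter. Ly6m stands at 2.04, and the other 20 lie between -0.20 and 0.42.

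Elsewhere in the family no diet difference passed the test. Of 44 further Ly6 and uPAR family genes listed, 37 had a value and 21 passed the filter. Of these 21, 0 were called in either direction (limma), beside 0.664% of all genes tested. An unadjusted p below 0.05 (limma) was found for 0, beside 1247 of all 13409 genes tested. The median difference of the 21 was -0.03, with 4 positive. Slurp1, a secreted relative that acts on acetylcholine receptors, had the smallest p, with a difference of -0.20 ± 0.11 (SE, adjusted p = 0.652). Lypd1 (-0.20 ± 0.11), Lypd5 (-0.14 ± 0.08) and Gpihbp1, which carries lipoprotein lipase across capillary walls (-0.18 ± 0.12), followed. The cluster with the highest mean in the list was that of Bambi, a pseudoreceptor that dampens TGF-beta signalling, at 11.95 ± 0.43 (SD, n = 4) against 12.15 ± 0.20 (SD, n = 3). Spaca4 came next at 7.97 ± 0.18 against 8.03 ± 0.05. The clusters other than that of Bambi lay within the range of the receptor reference, so expression of these genes was not settled. A small difference there does not show an expressed gene that ignored the diet.

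**Figure D4:**
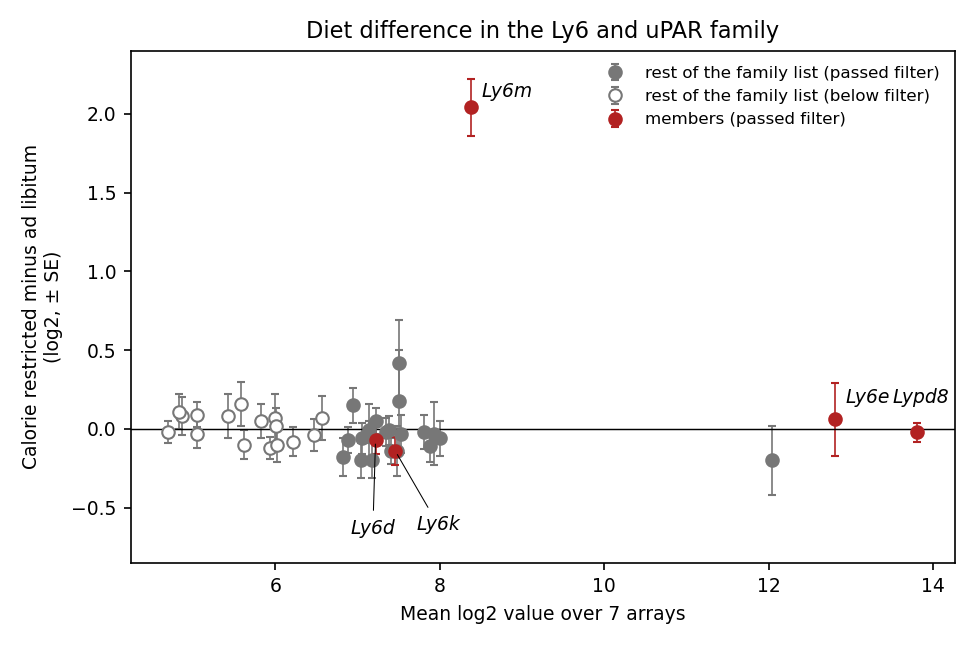
Difference in log2 value between the diets, calorie restricted less ad libitum, with its SE (vertical axis) against the mean log2 value over 7 arrays (horizontal axis) for the 5 measured members (red) and 37 further genes of the family list (grey; open below the filter level). Ly6m stands apart at 2.04, and the 21 genes of the list that passed the filter lie between -0.20 and 0.42.

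Genes that build, attach and trim the GPI anchor, which most Ly6 proteins need to reach the cell surface, were close to level. Of 33 tested, 0 were called (limma), and 18 were positive, with a median difference of 0.03. An unadjusted p below 0.05 (limma) was found for 1, beside 1247 of all 13409 genes tested. That anchor gene was Pgap3, which remodels the anchor's lipid, at 8.86 ± 0.07 (SD, n = 4) against 8.64 ± 0.10 (SD, n = 3; adjusted p = 0.515). Pigx (0.25 ± 0.11, SE), Dpm3 (-0.16 ± 0.09) and the anchor-cleaving phospholipase gene Gpld1 (-0.21 ± 0.12) followed. The brightest were Tmed2 and Tmed10, cargo receptors that help GPI-anchored proteins leave the endoplasmic reticulum, with differences of 0.03 ± 0.10 and -0.09 ± 0.10.

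Interferon response genes, examined because Ly6e and Ly6a respond to interferon, did not pass either. Of 31 tested, 0 were called (limma), and 11 were positive, with a median difference of -0.10. An unadjusted p below 0.05 (limma) was found for 4, 2 of them higher, beside 1247 of all 13409 genes tested. Lgals3bp (0.26 ± 0.07, SE, adjusted p = 0.224) and the transcription factor gene Irf7 (0.49 ± 0.21, adjusted p = 0.524) were the 2 higher ones, and Stat2 (-0.32 ± 0.11, adjusted p = 0.406) and the nucleic acid sensor gene Zbp1 (-0.34 ± 0.14, adjusted p = 0.481) the others. Irf7 was at 9.45, 10.01, 9.54 and 9.20 in CR 1 to CR 4 and at 9.41, 8.92 and 8.87 in AL 1 to AL 3, a wider range than that of Ly6e. The mean of the list lay between 8.79 and 9.07. Of 7 genes of repairing or fetal-like epithelium tested, a state that Ly6a marks, 0 were called and 0 had an unadjusted p below 0.05 (limma). Their median difference was -0.14. Ccn1 (-0.23 ± 0.13), Msln (-0.15 ± 0.09), Ccn2 (-0.14 ± 0.09) and Ccnd2 (0.22 ± 0.18) had the smallest p.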

How the data were processed

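Expression was measured on 7 Affymetrix arrays. Per the submitters' processing notes, the authors used Affymetrix Expression Console, and they deposited log2 values per transcript cluster. The version, the algorithm and the normalization were not given in the sources used here, so the log2 scale was inferred from values between 2.97 and 14.67. Any compression at either end of that range would shrink differences. Of 35556 clusters, 21789 had 1 gene symbol, 1621 several and 12146 none here (platform annotation, checked against RefSeq GRCm38.p6). The single-symbol cluster with the highest mean stood for each of 19938 genes. A gene was tested if its mean reached the 40th percentile of the clusters, which 13409 did. The comparison of the diets used limma (version 3.58.1, R version 4.3.3; lmFit, eBayes with intensity trend, no covariates, Benjamini-Hochberg over all genes tested), which was tested on simulated data. Genes below the filter take values from the fit without it.

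The members, gene lists and rules were chosen with earlier results of these data known. Named genes are the members, per list up to 4 genes with the smallest p and the 2 brightest, up to 3 neighbours on each side, and the 5 nearest profiles of variable members. Genes named beyond that are Cyp3a11, Csf1r, Kdr, Ptprc, Pecam1, Ly6g2 and Lypd9, chosen after their values were seen, and genes with 1 array far from the others. Alternatives were other normalizations, filters, cluster choices and variance models, the replicate block and leaving out each array. Figures were drawn with matplotlib (version 3.10.9).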

Additional observations from a re-analysis of the deposited data

Results flagged for a closer look

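In the 4 calorie-restricted arrays, 5 of the 125 genes examined had 1 array far from the other 3, which chance alone gives in about 1 of 20 groups. None was a member. Among family genes, Lypd3 was at 7.56 in calorie-restricted replicate 3 (7.33 or less on the others), and Lypd6 was at 6.77 in replicate 4 (7.09 to 7.12 on the others). The GPI cargo receptor gene Tmed2 was at 12.96 in replicate 4 (13.22 to 13.23 on the others), and the goblet cell gene Spink4 at 13.98 in the same array (14.10 to 14.12 on the others). Il18 was at 8.34 in replicate 1 (7.88 to 7.95 on the others).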

How the results depend on the processing

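The Ly6m difference stayed between 1.87 and 2.18 without 1 array and between 2.02 and 2.17 under the other alternatives. Ly6d ran from -0.10 to -0.02, Ly6e from -0.16 to 0.28, Ly6k from -0.18 to -0.09 and Lypd8 from -0.04 to 0.01 without 1 array. Lypd8 was at 0.03 after quantile normalization and 0.07 after median centring, where the median difference over all genes was 0.10 in place of 0.01. The counts of calls moved more. Quantile normalization called 53 genes higher and 0 lower, and array weights 963 and 392. The number called lower was 0 after median centring, 0 with the 60th percentile filter and 2 with no filter. Array weights called 3 GPI anchor genes higher and 1 lower, 3 interferon genes, 25 enterocyte, 6 villus tip and 2 villus base genes higher. Without 1 array, 12 to 97 genes were higher and 0 to 9 lower, with 2 to 12 enterocyte, 0 to 2 villus tip and 0 to 1 villus base genes higher. The cause of these changes was not tested. With the replicate number as a block (replicates 1 to 3), 0 genes were called higher or lower, enterocyte and villus tip genes included (0 each), and the Ly6m difference was 2.02. Deviations of same-numbered arrays correlated at -0.126, -0.265 and -0.550, which gave no sign that the numbers pair the samples. Differently numbered arrays were not compared, and whether the numbers mark a shared batch was not tested. Of the family genes that are no members, 0 were called in any of these alternatives.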
